A study of Mus musculus with 16 samples.

Results

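The mitochondrial carriers are the Slc25 proteins, which move metabolites, nucleotides, phosphate and cofactors across the inner mitochondrial membrane. The members described here are the protein-coding mouse genes whose symbols begin with Slc25a, plus Ucp2, leaving out Slc25a15 and Slc25a20. The annotation holds 46 of them, and 38 reached 1 FPKM (sequenced fragments scaled for transcript length and library size, summed over a gene's transcripts) in at least 2 libraries. The other 8 (Slc25a2, Slc25a18, Slc25a27, Slc25a31, Slc25a36, Slc25a41, Slc25a43 and Slc25a54) were below that level. The 38 are among 11790 genes tested in the series. Slc25a4 and Slc25a24 passed the level only through DDC libraries, and Slc25a34 only through chow libraries.

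Each carrier is a small membrane protein built from repeated pairs of membrane-spanning helices, and most exchange one solute for another. In the liver they link pathways that are split between mitochondria and cytosol. Among these are the export of newly made ATP, citrate export for lipid synthesis, the malate-aspartate shuttle, and the import of glycine for haem synthesis.

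The RNA came from FVB mouse hepatocytes isolated in the presence of cycloheximide, which holds ribosomes on their mRNA. The mice were fed either a normal chow diet or DDC for 4 weeks. DDC is a porphyrin-inducing liver toxicant that blocks the last step of haem synthesis and injures the bile ducts. From each diet the polyadenylated RNA of 4 pools was sequenced, namely cytoplasm, monosomes (1 ribosome), light polysomes (2 to 4 ribosomes) and heavy polysomes (more than 5), with 2 libraries per diet and pool and 16 in all. The chow fraction libraries are named for pairs of preparations. No label says that each library came from a separate mouse, so p-values measure the spread between these libraries, which may be partly technical. In such bulk RNA, fewer cells of a type and less RNA per cell cannot be told apart.

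Summed FPKM ran from 375145 to 1386166 per library, and 8313 to 9874 genes reached 1 FPKM. Sequenced depth is not stated. The value steps of low genes put 1 fragment per kilobase at 0.0151 to 0.0743 FPKM. Hepatocyte markers were abundant in every library (summed level 7540 to 39280 FPKM over 10 genes), although Trf was listed at 0 in all 8 groups, and Serpina1a, Apoa1 and Ttr in some. Their sum was lower in DDC without overlap on monosomes (14350 to 15780 FPKM in chow, 8920 to 10820 in DDC), light polysomes (13500 to 13570 against 7540 to 11310) and heavy polysomes (35170 to 39280 against 14050 to 20090), and overlapped in cytoplasm (14610 to 19020 against 12160 to 18330). Of the 8, 7, 6 and 7 hepatocyte markers tested in cytoplasm, monosomes, light and heavy polysomes, 1, 2, 2 and 1 were lower and 0, 1, 0 and 0 higher. The median differences of the tested hepatocyte markers were -0.60, -0.22, -0.12 and -0.15. The hepatocyte sums do not cover the same genes in both diets. Apoa1 was listed at 0 on DDC monosomes and light polysomes but not in those chow pools. Ttr was listed at 0 on chow light polysomes alone, and Serpina1a in every chow pool and no DDC pool. Markers of other liver cells moved with diet as well. Macrophage markers were higher in DDC for 9, 11, 10 and 11 of 11 genes in cytoplasm, monosomes, light and heavy polysomes. Their summed level was 87.7 to 115 FPKM in chow cytoplasm and 632.5 to 950.2 in DDC cytoplasm, and 284.6 to 470.9 and 4867 to 5773 on heavy polysomes. Stellate and fibroblast markers were higher for 6, 7, 6 and 7 of 8 tested genes, and cholangiocyte markers for 4 of 5, 3 of 4, 4 of 5 and 4 of 5. Their summed levels were 2.402 to 25.4 FPKM in chow and 48.5 to 114 in DDC for stellate markers, of which Acta2 was listed at 0 in all chow groups, and 4.04 to 9.52 and 18.2 to 116 for cholangiocyte markers, of which Epcam, Cldn4 and Cftr were listed at 0 in all chow groups. None of the 8 lymphocyte markers passed the level for testing, and their summed level was at most 3.38 FPKM in any library.

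Sequences of 2 kinds are shown, from transcripts of Slc25a3 whose levels differed between diets and from members called between diets. The first are the alternative forms of exon 3 of Slc25a3, the phosphate carrier, from GENCODE M21 on GRCm38. Both lie wholly in coding sequence on the minus strand of chromosome 10. Slc25a3-201 carries the 122-base exon at chr10:91121922-91122043 and Slc25a3-206 the 125-base exon at chr10:91122207-91122331. The exons have 80 identical bases in 126 aligned columns (63.5%), and capitals mark the bases that differ.
Slc25a3-201 exon 3: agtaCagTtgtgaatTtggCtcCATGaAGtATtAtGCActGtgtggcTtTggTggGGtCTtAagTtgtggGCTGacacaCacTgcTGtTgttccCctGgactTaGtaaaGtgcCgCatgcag
Slc25a3-206 exon 3: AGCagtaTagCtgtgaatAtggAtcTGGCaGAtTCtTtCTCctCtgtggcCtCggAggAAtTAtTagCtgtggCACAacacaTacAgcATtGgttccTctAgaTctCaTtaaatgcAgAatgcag

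The second are stretches just before the start sites of 2 members that rose and 2 that fell in DDC, credited to RefSeq on GRCm38.p6. They are chr7:100493258-100493336 for Ucp2 (plus strand), chr3:109123049-109123148 for Slc25a24 (plus), chr6:6217174-6217273 for Slc25a13 (minus) and chr10:62920533-62920632 for Slc25a16 (plus). Capitals mark a match to TGACNNNGC, the core of the antioxidant response element, on either strand.
Ucp2: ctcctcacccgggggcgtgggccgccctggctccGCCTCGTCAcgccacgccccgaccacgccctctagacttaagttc
Slc25a24: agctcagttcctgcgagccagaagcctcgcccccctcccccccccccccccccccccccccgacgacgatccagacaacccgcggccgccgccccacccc
Slc25a13: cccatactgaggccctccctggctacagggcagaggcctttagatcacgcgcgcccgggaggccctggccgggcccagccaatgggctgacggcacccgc
Slc25a16: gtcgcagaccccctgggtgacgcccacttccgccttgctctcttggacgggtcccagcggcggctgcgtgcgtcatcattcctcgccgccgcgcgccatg

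RefSeq promoter windows (250 bases before to 50 after a start) were found for 30 of the 38 members, 39 windows in all. TGACNNNGC was in 13 of the 39 member windows (33.3%), from 10 members, against 12.4% of 32851 windows of all genes. Windows of Slc25a14 and of Slc25a23 overlap one another and share a match. Of the 10 members, Ucp2 rose in DDC, and Slc25a25, Slc25a40 and Slc25a53 were not called. The others (Slc25a3, Slc25a5, Slc25a14, Slc25a23, Slc25a33 and Slc25a38) each fell on some ribosome fraction. For the matched windows of Slc25a5, Slc25a25 and Slc25a40, the bases after the start were not found in a GENCODE transcript of the gene. The NRF1 motif (10 bases) was in 2.56% of member windows and 4.6% of all, the YY1 motif AAGATGGCG in 2.56% and 1.4%, the AP-1 motif TGANTCA in 5.13% and 7.81%, and the ERR motif TCAAGGTCA in 0% and 0.423%, each on either strand. A match describes these letters only.

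The first question was which carriers differed between DDC and chow in each pool. Differences are log2(FPKM + 1) of DDC minus chow from limma, with the standard error (SE) of the fit, and a member is called at an adjusted p under 0.05 over all genes tested. In cytoplasm 3 members rose and 6 fell, against a background of 12.7% of all tested genes higher and 9.68% lower. These are 7.89% and 15.8% of the members. On monosomes 4 rose and 7 fell (background 21% and 15.9%), on light polysomes 4 rose and 6 fell (16.6% and 13.5%), and on heavy polysomes 3 rose and 10 fell (13.9% and 10.9%). Slc25a4 and Slc25a24 are among the rises in every pool. They passed the level for testing only through DDC libraries, so their rises are not independent of that level. The median difference of the members was -0.35, -0.06, -0.26 and -0.49 in these 4 pools, and that of all genes 0.01, 0.04, 0.01 and 0.02. The count on heavy polysomes rested in part on single libraries: without DDC heavy polysome replicate 2 it was 4 members (3 higher, 1 lower). On monosomes 7 members were called without chow monosome replicate 2. Calls that held in all 16 fits without 1 library numbered 6 of 9 in cytoplasm (Slc25a4, Slc25a13, Slc25a16, Slc25a24, Slc25a42 and Ucp2), 5 of 11 on monosomes (Slc25a4, Slc25a13, Slc25a16, Slc25a24 and Ucp2), 6 of 10 on light polysomes (those 5 and Slc25a3) and 4 of 13 on heavy polysomes (Slc25a4, Slc25a24, Slc25a38 and Ucp2). The summed hepatocyte markers were also lower in DDC on the 3 fractions, although the sums cover partly different genes in each diet. The part of these markers in the members' falls there was not tested.

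**Figure D1:**
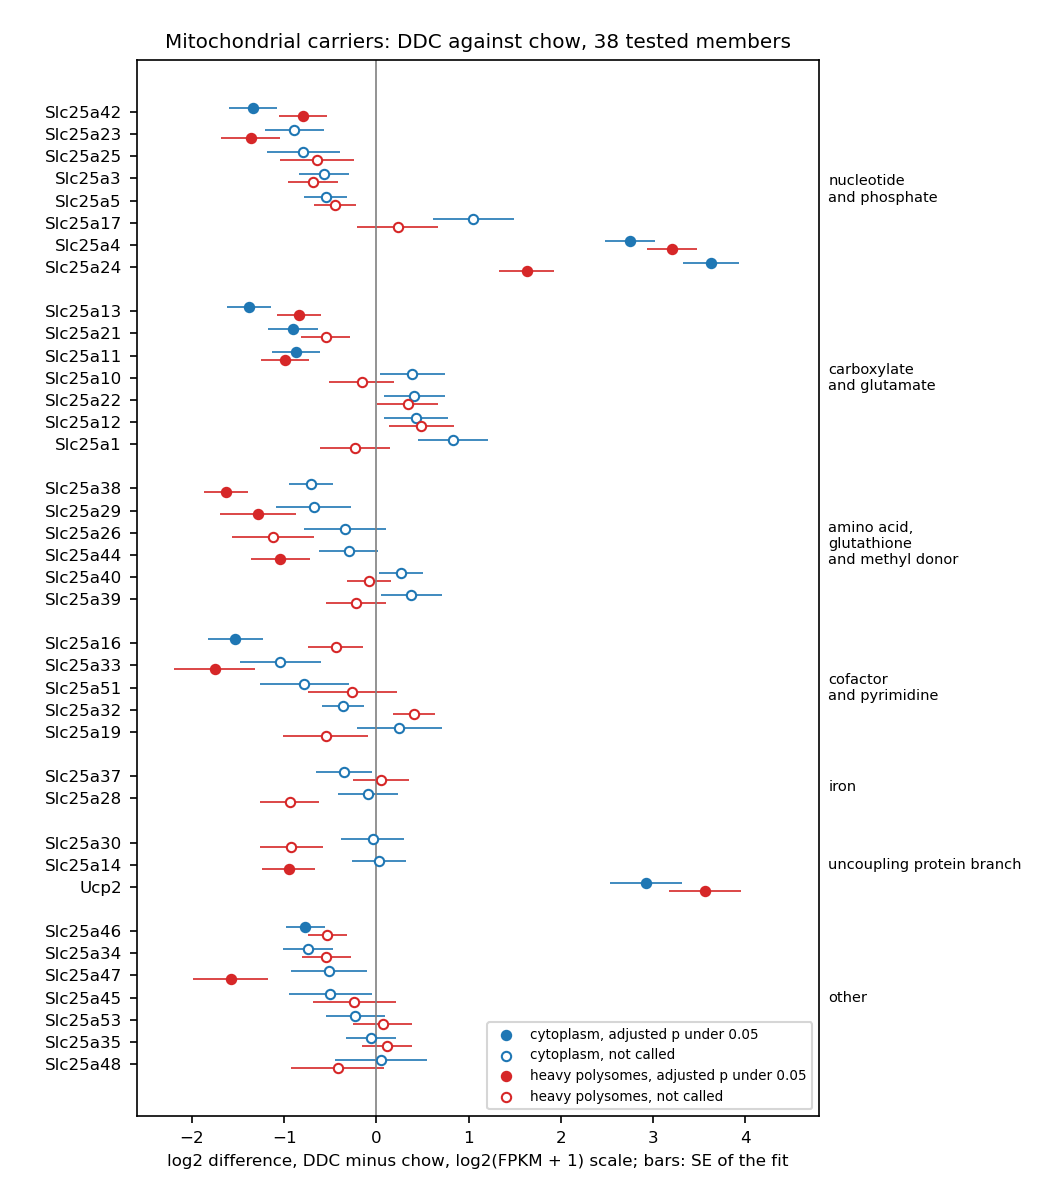
Log2 difference of DDC minus chow (log2(FPKM + 1) scale, bars are SE of the fit) for the 38 tested members by role, in cytoplasm (blue) and on heavy polysomes (red); filled points have an adjusted p under 0.05. Slc25a4, Slc25a24 and Ucp2 lie far to the right in both pools, and no other member has a filled point above 0. Slc25a4 and Slc25a24 passed the level for testing only through DDC libraries.

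Among the 8 tested nucleotide and phosphate carriers, 2 rose and 1 to 3 fell in each pool. The 2 were Slc25a4 and Slc25a24, which passed the level for testing only through DDC libraries. The ADP/ATP carrier Slc25a4 (ANT1, the form of heart and muscle) rose in all 4 pools, while Slc25a5 (ANT2, the form of dividing and many other cells) fell on light polysomes and was not called elsewhere. Slc25a4 stood at 0.631 and 0.751 FPKM in chow cytoplasm, 0.839 and 0.879 on chow monosomes, 0.626 and 0.657 on light polysomes and 0.895 and 0.941 on heavy polysomes. In DDC it stood at 10.2 and 10.7, 7.50 and 6.73, 5.66 and 9.03, and 12.6 and 22.1 FPKM in the same pools. In chow heavy polysome replicate 2 the value was listed for a retained-intron transcript and the coding one at 0. Every DDC library was above every chow library. The difference was 2.75 (SE 0.27, limma adjusted p = 4.46e-05) in cytoplasm, 2.12, 2.32 and 3.21 (adjusted p = 1.16e-05) on the fractions. The chow values rest on about 24 to 70 fragments per library and the DDC values on about 338 to 1358.

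Slc25a5 was the more abundant of the pair in every library. It stood at 254 and 288 FPKM in chow cytoplasm and 193 and 176 in DDC cytoplasm, and at 356 and 271 against 141 and 169 on light polysomes. The light polysome difference was -1.0 (SE 0.23, limma adjusted p = 0.00698), and the call was lost without chow light polysome replicate 1 (-0.81). On heavy polysomes it was 626 and 603 in chow and 470 and 432 in DDC (-0.45, adjusted p = 0.192). The ratio of Slc25a5 to Slc25a4 in FPKM, which is per length, was 183 to 699 in chow libraries and 16.2 to 37.4 in DDC libraries. Slc25a4 thus made up 0.143% to 0.543% of the 2 together in chow and 2.61% to 5.82% in DDC.

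Slc25a24, a calcium-regulated exchanger of ATP-magnesium and phosphate, was at most 0.239 FPKM in any chow library and at least 1.41 in every DDC library. Its chow values were 0.109 and 0.239 FPKM in cytoplasm, 0 and 0.225 on monosomes, 0.0402 and 0.0376 on light polysomes, and 0 in both heavy polysome libraries. The DDC values were 13.8 and 13.4, 2.47 and 5.54, 4.08 and 4.61, and 1.41 and 2.97 FPKM. The groups did not overlap in any pool. The differences were 3.63 (SE 0.30, limma adjusted p = 1.61e-05), 2.11 and 2.36 in cytoplasm, monosomes and light polysomes, and the heavy polysome call had an adjusted p of 0.00215 with no fold given, since chow is listed at 0. Its paralogues went the other way or were not called. Slc25a23 fell on monosomes (295 and 358 FPKM in chow, 104 and 160 in DDC, -1.32, SE 0.32) and on heavy polysomes (62.8 and 47.3 against 29.5 and 14.4, -1.36). These calls were lost without chow monosome replicate 2 or DDC monosome replicate 1 (-1.19 and -1.02), and without chow heavy polysome replicate 1 or DDC heavy polysome replicate 2 (-1.16 and -0.86). In cytoplasm it was 94.99 and 98.9 against 47.5 and 56.2, and on light polysomes 81.9 and 113 against 68.95 and 70.6, with no overlap and no call. Slc25a25 was not called in any pool (limma adjusted p = 0.0998 to 0.276). Its values were 33.9 and 29.9 FPKM in chow cytoplasm and 14.5 and 22.3 in DDC cytoplasm, 26.6 and 46.9 against 16.8 and 20.7 on monosomes, 15.6 and 23.8 against 9.11 and 16.2 on light polysomes, and 14.8 and 25.95 against 9.35 and 16 on heavy polysomes. The diets overlapped on light and heavy polysomes.

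Slc25a42, a carrier of coenzyme A and adenine nucleotides, fell in 3 of the 4 pools. In cytoplasm it was 14.9 and 17.1 FPKM in chow and 6.498 and 4.98 in DDC (-1.34, SE 0.26, limma adjusted p = 0.00401). On monosomes it was 7.70 and 12.3 against 4.35 and 4.16 (-1.03, adjusted p = 0.00961), and on heavy polysomes 3.07 and 3.04 against 1.24 and 1.46 (-0.79, adjusted p = 0.0467). On light polysomes it was 4.49 and 3.94 against 3.36 and 1.85, without a call. The cytoplasm call held in all 16 fits that left out 1 library, the monosome call was lost without chow monosome replicate 2 (-0.73), and the heavy polysome call held in 4 of 16. The peroxisomal carrier Slc25a17 was not called in any pool (0.18 to 1.05).

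**Figure D2:**
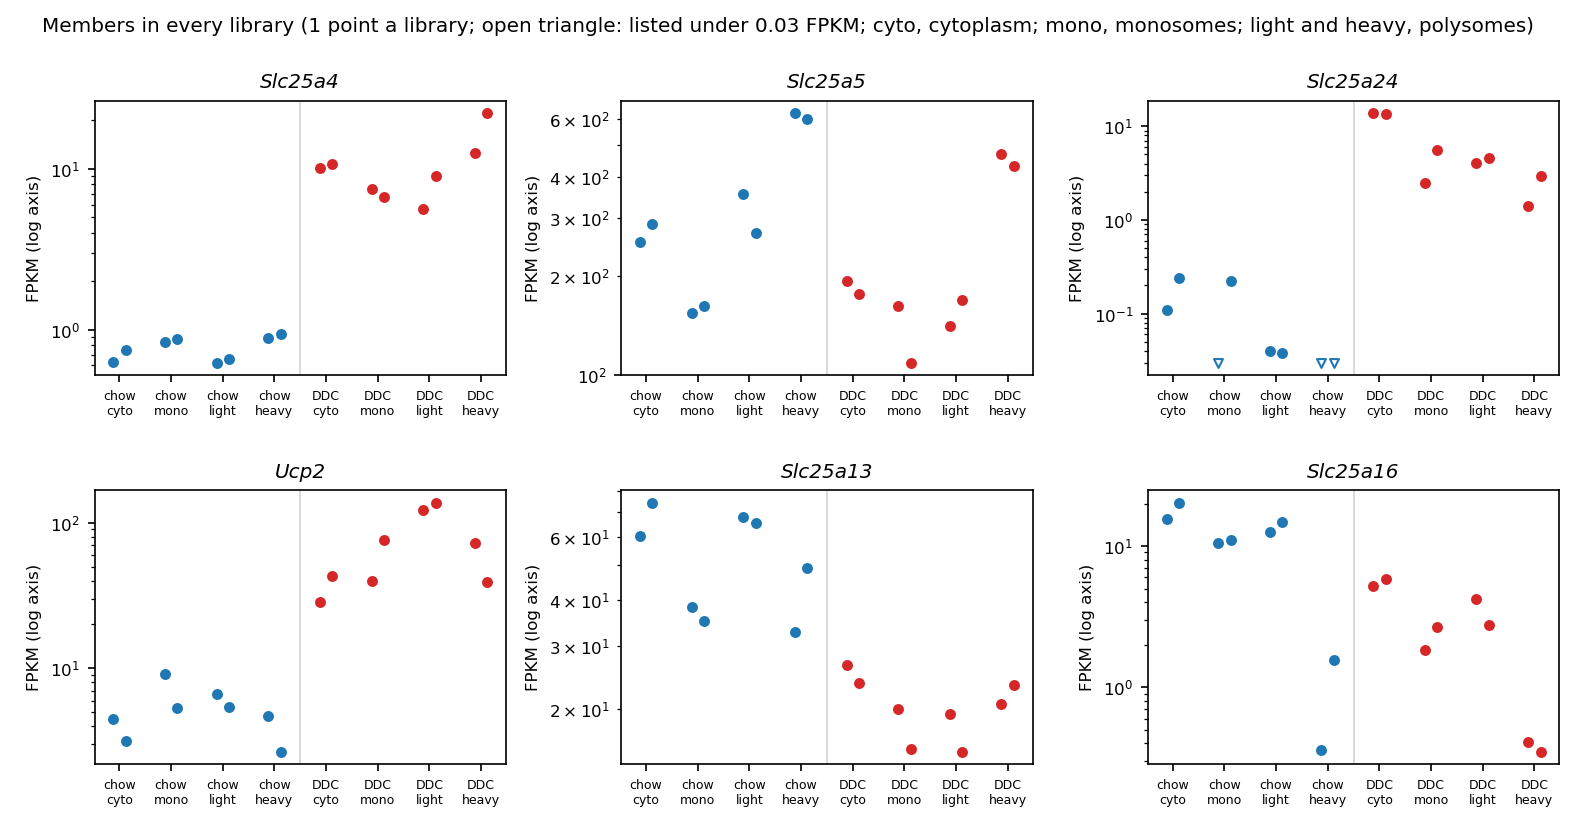
FPKM (log axis) of 6 members in each of the 16 libraries, chow in blue and DDC in red, 1 point per library. Slc25a4, Slc25a24 and Ucp2 are higher in every DDC library than in any chow library, Slc25a13 is lower in every DDC library, and Slc25a16 drops on heavy polysomes in both diets.

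Slc25a3 brings phosphate into the matrix for ATP synthesis. As a gene it fell on monosomes (199 and 166 FPKM in chow, 97.0 and 71.7 in DDC, -1.12, SE 0.27, limma adjusted p = 0.00665) and on light polysomes (188 and 147 against 53.1 and 88.3, -1.27, adjusted p = 0.00398). In cytoplasm it was 119 and 130 against 87.6 and 79.5 (-0.57, adjusted p = 0.15), and on heavy polysomes 356 and 304 against 190 and 217 (-0.69, adjusted p = 0.0789). The monosome call was lost without DDC monosome replicate 2 (-0.90, adjusted p = 0.0546).

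The 2 transcripts whose exons are printed above differed sharply between sets of libraries. Slc25a3 transcripts with alternative forms of this exon are known from other tissues, where the one with the upstream exon is the heart and skeletal muscle form. Slc25a3-206, which has the upstream exon, was listed at 81.9 and 75.0 FPKM on chow monosomes, 111 and 79.1 on chow light polysomes and 186 and 139 on chow heavy polysomes. It was 0.829 and 0.979 FPKM in chow cytoplasm, 0 to 0.245 in DDC cytoplasm, and 0 to 0.564 in the 6 DDC fraction libraries. It thus made up 41.2% to 58.9% of the gene's FPKM in the 6 chow fraction libraries and at most 1.06% in any DDC library.

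Slc25a3-201 was present throughout, at 111 and 120 FPKM in chow cytoplasm, 67.8 to 167 in the chow fractions and 46.2 to 191 across the 8 DDC libraries. For Slc25a3-201 alone, light polysomes overlapped between diets (75.4 and 67.8 in chow, 46.2 and 77.2 in DDC), as did heavy polysomes (167 and 144 against 161 and 191). On monosomes it was 116 and 91.3 in chow and 86.0 and 69.8 in DDC. Of 992 transcripts at 50 FPKM or more in all 6 chow fraction libraries, only Slc25a3-206 was under 1 FPKM in the other 10 libraries. Of 950 at that level in all 6 DDC fraction libraries, 0 were. These levels were set after the values of Slc25a3-206 had been seen. No test was run on single transcripts, and the split between them is an estimate from shared exons. The 206 model also begins 56 bases later and ends 218 bases earlier, and whether the exon or the ends set the split was not tested. Slc25a4, whose product is also a heart and muscle form, was under 1 FPKM in the same chow libraries. The source of the Slc25a3-206 values was not tested.

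**Figure D3:**
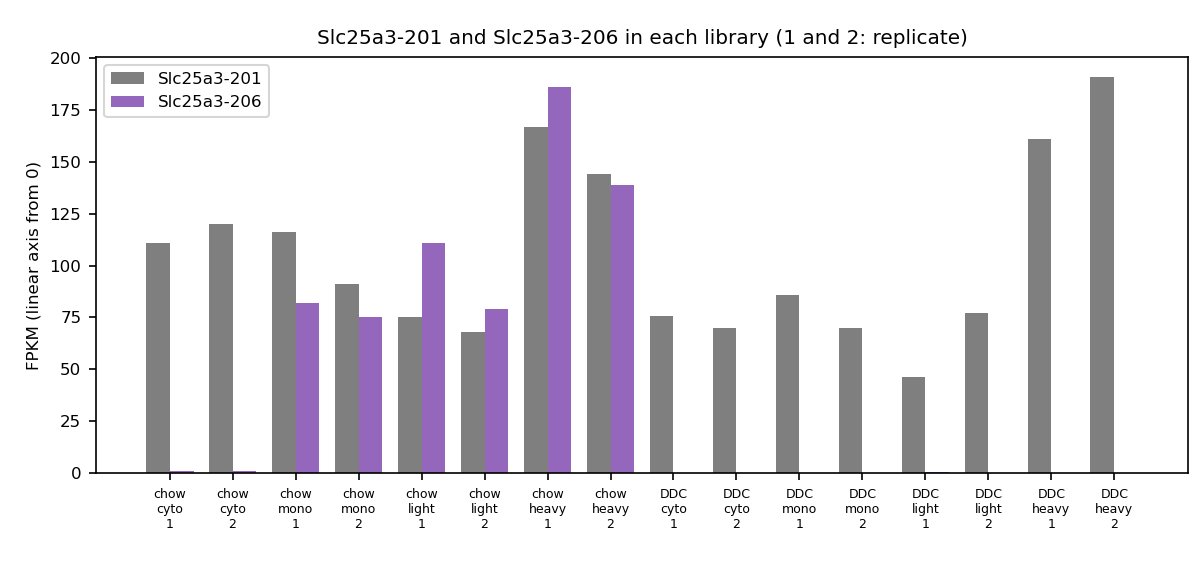
FPKM (linear axis from 0) of the transcripts Slc25a3-201 (grey) and Slc25a3-206 (purple) in each of the 16 libraries. Slc25a3-206 stands at 75.0 to 186 FPKM in the 6 chow ribosome fractions and is under 1 FPKM in chow cytoplasm and in every DDC library.

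Among the 7 tested carboxylate and glutamate carriers, Slc25a13 and Slc25a11 of the malate-aspartate shuttle fell in all and in 2 of the pools, Slc25a12 of the same shuttle was not called, and the citrate carrier Slc25a1 rose in 2 pools. Slc25a13 (citrin), the aspartate-glutamate exchanger of liver, fell in all 4 pools. It was 60.2 and 74.4 FPKM in chow cytoplasm and 26.5 and 23.6 in DDC (-1.38, SE 0.24, limma adjusted p = 0.00195). On monosomes it was 38.3 and 35.2 against 20.01 and 15.6 (-1.01), on light polysomes 68.1 and 65.3 against 19.4 and 15.2 (-1.89, adjusted p = 0.000175), and on heavy polysomes 32.8 and 49.0 against 20.7 and 23.4 (-0.84, adjusted p = 0.0234). No DDC library reached any chow library. The heavy polysome call was lost without chow heavy polysome replicate 2 or either DDC heavy polysome library (-0.92 to -0.55). The related Slc25a12 (aralar) was not called in any pool (0.26 to 0.49), and 9.16% of its FPKM lay in its full coding transcript. Of the 2 genes' summed FPKM, Slc25a13 made up 78.9% to 96.0% in chow and 74.1% to 87.9% in DDC.

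Slc25a11, the oxoglutarate-malate exchanger of the same shuttle, fell in cytoplasm (26.8 and 35.0 FPKM against 17.1 and 15.6, -0.87, SE 0.26, limma adjusted p = 0.0325) and on heavy polysomes (158 and 111 against 85.8 and 51.0, -0.99, adjusted p = 0.0158). On monosomes (52.6 and 53.4 against 33.6 and 35.2) and light polysomes (77.98 and 78.7 against 52.1 and 49.9) the libraries did not overlap either, but the calls missed the threshold (adjusted p = 0.0864 and 0.0968). The cytoplasm call was lost in each of the 4 fits that left out a cytoplasm library (-1.05 to -0.68), and the heavy polysome call without chow heavy polysome replicate 1 or DDC heavy polysome replicate 2 (-0.73 and -0.62). Slc25a21, which carries oxoadipate, fell in cytoplasm (-0.90) and on monosomes (-0.80). The former call was lost without any 1 of the 4 cytoplasm libraries (-1.07 to -0.73), and the latter without either chow monosome library or DDC monosome replicate 1 (-0.85 to -0.51) and in 4 of 9 other alternatives.

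Slc25a1, which exports citrate, rose on monosomes and light polysomes. It stood at 128 and 226 FPKM on chow monosomes and 292 and 631 on DDC monosomes (1.33, SE 0.38, limma adjusted p = 0.0165), and at 228 and 294 against 554 and 635 on light polysomes (1.19, adjusted p = 0.0325). In cytoplasm it was 84.3 and 109 against 176 and 166 (0.83, adjusted p = 0.143). On heavy polysomes the diets overlapped, with 462 and 541 in chow and 538 and 336 in DDC (-0.23, adjusted p = 0.709). The monosome call was lost without chow monosome replicate 1 or DDC monosome replicate 2 (0.92 and 0.78, adjusted p = 0.13 and 0.157), and the light polysome call whenever any 1 light polysome library was left out (1.01 to 1.38). The dicarboxylate carrier Slc25a10 and the glutamate carrier Slc25a22 were not called in any pool. Slc25a10 was 50.6 and 75.4 FPKM in chow cytoplasm and 97.3 and 68.1 in DDC, 82.6 and 125 against 113 and 148 on monosomes, 78.7 and 103 against 178 and 114 on light polysomes, and 263 and 267 against 310 and 181 on heavy polysomes. Slc25a22 was 49.5 and 31.4 against 55.8 and 49.7 in cytoplasm, 19.8 and 17.9 against 20.6 and 37.2 on monosomes, 19.4 and 12.8 against 21.9 and 19.0 on light polysomes, and 25.6 and 15.8 against 24.7 and 26.97 on heavy polysomes. The diets overlapped in 3 pools for the former and in 2 for the latter.

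Among the 6 tested carriers of amino acids, glutathione and methyl donor, falls were called on polysomes and none in cytoplasm or on monosomes. Slc25a38, which imports glycine for haem synthesis, was 9.35 and 8.11 FPKM in chow cytoplasm and 4.77 and 5.13 in DDC (-0.71, limma adjusted p = 0.0518), and 15.9 and 16.5 against 11.4 and 12.99 on monosomes. It fell on light polysomes (20.8 and 21.1 against 11.8 and 10.9, -0.83, SE 0.24, adjusted p = 0.0208) and on heavy polysomes (24.4 and 18.8 against 8.13 and 4.76, -1.63, adjusted p = 0.000513). The light polysome call was lost without any 1 of the 4 light polysome libraries (-0.88 to -0.77, adjusted p = 0.0573 to 0.0971) and under equal summed FPKM, while the heavy polysome call held in all 16 fits without 1 library. Slc25a44, a carrier of branched-chain amino acids, fell on heavy polysomes alone (9.37 and 9.39 against 4.38 and 3.73, -1.04, adjusted p = 0.0328). That call was lost without any 1 of the 4 heavy polysome libraries (-1.13 to -0.95, adjusted p = 0.0701 to 0.141) and kept in 4 of 9 other alternatives. Its other pools overlapped between diets, with 21.3 and 15.7 against 16.3 and 13.3 in cytoplasm, 25.1 and 19.5 against 12.6 and 27.7 on monosomes, and 14.5 and 13.8 against 13.9 and 9.96 on light polysomes. Slc25a29, which carries basic amino acids, was 9.89 and 4.47 against 3.67 and 1.17 there (-1.28, adjusted p = 0.0401), a call kept in 8 of 16 such fits. Elsewhere Slc25a29 was low, at 1.22 and 1.02 against 0.355 and 0.281 in cytoplasm, 1.93 and 1.22 against 2.43 and 1.49 on monosomes, and 3.14 and 2.22 against 2.73 and 1.15 on light polysomes. Slc25a39, the glutathione carrier, was not called in any pool. Its chow values were 194 and 204 FPKM in cytoplasm, 1006 and 1444 on monosomes, 790 and 836 on light and 755 and 700 on heavy polysomes. The DDC values were 270 and 249.4, 1297 and 1391, 1072 and 869, and 956 and 408.

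Of the 5 tested carriers of cofactors and pyrimidines, Slc25a16 fell in 3 pools and Slc25a33 in 1. Slc25a16 is linked to coenzyme A in the matrix. It was 15.6 and 20.3 FPKM in chow cytoplasm and 5.20 and 5.83 in DDC (-1.53, SE 0.30, limma adjusted p = 0.00389), 10.6 and 11.1 against 1.84 and 2.67 on monosomes (-1.87), and 12.6 and 14.8 against 4.21 and 2.77 on light polysomes (-1.73). On heavy polysomes all 4 libraries were low, at 0.358 and 1.57 in chow and 0.410 and 0.348 in DDC. Slc25a33, a pyrimidine nucleotide carrier, fell on heavy polysomes (15.3 and 25.2 against 5.56 and 4.71, -1.75, SE 0.44, adjusted p = 0.0126), a call lost without replicate 2 of chow or of DDC there (-1.41 and -1.65). It was 5.20 and 13.7 against 3.88 and 3.45 in cytoplasm, 11.04 and 19.3 against 5.97 and 10.2 on monosomes, and 19.97 and 35.3 against 9.17 and 13.02 on light polysomes, without a call. The iron carriers Slc25a37 (mitoferrin-1; 4.22 and 5.56 against 2.95 and 4.31 in cytoplasm, 1.67 and 2.77 against 3.58 and 2.35 on light polysomes) and Slc25a28 (mitoferrin-2) were not called between diets in any pool.

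In the uncoupling protein branch, Ucp2 is a transporter tied to fuel choice and abundant in immune cells. On monosomes and on light and heavy polysomes it had the largest rise of any member on the log2(FPKM + 1) scale. That scale understates the rises of Slc25a4 and Slc25a24, which were under 1 FPKM in every chow library. Ucp2 stood at 4.46 and 3.18 FPKM in chow cytoplasm, 9.14 and 5.36 on monosomes, 6.63 and 5.43 on light and 4.74 and 2.67 on heavy polysomes. In DDC it stood at 28.7 and 43.0, 39.8 and 75.8, 121 and 137, and 72.3 and 38.9. The differences were 2.92 (SE 0.39, limma adjusted p = 0.00042), 2.80, 4.21 (adjusted p = 2.89e-05) and 3.56. No DDC library overlapped any chow library. The macrophage, stellate and cholangiocyte marker sums given above were also higher in DDC in every pool, and their part in the rises of Ucp2, Slc25a4 and Slc25a24 was not tested. Ucp2 overlaps Dnajb13 on the opposite strand. Slc25a14 fell on heavy polysomes (-0.95, adjusted p = 0.0306), a call lost without chow heavy polysome replicate 1 or either DDC heavy polysome library (-1.04 to -0.74) and in 5 of 9 other alternatives, among them protein-coding transcripts alone. Slc25a30 was not called.

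Of the 7 tested members with other or unknown substrates, Slc25a47 was the most abundant. This liver carrier was 107 and 225 FPKM in chow cytoplasm, 282 and 325 on monosomes, 442 and 481 on light polysomes and 2042 and 1446 on heavy polysomes. In DDC it was 153 and 76.95, 273 and 221, 310 and 271, and 770 and 428. It fell on heavy polysomes (-1.58, SE 0.41, limma adjusted p = 0.014), and the call was lost without chow heavy polysome replicate 1 or DDC heavy polysome replicate 2 (-1.33 and -1.16). Slc25a46, which sits in the outer membrane and acts in mitochondrial shape, fell in cytoplasm (6.86 and 7.27 against 3.58 and 3.85, -0.77, SE 0.21), on monosomes (4.52 and 4.78 against 2.53 and 2.66, -0.65) and on light polysomes (4.65 and 5.28 against 3.004 and 1.94, -0.80). On heavy polysomes it was 1.76 and 1.47 against 0.655 and 0.978 (-0.53). All of its called differences were lost without some single library of the pool compared.

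Together the members made up 0.274% to 0.391% of a chow library's summed FPKM and 0.274% to 0.470% of a DDC library's. In cytoplasm the summed FPKM of the members was 1223 and 1469 in chow and 1318 and 1161 in DDC. On heavy polysomes it was 5012 and 4356 in chow and 3656 and 2357 in DDC. The summed FPKM of all genes was also lower there, at 1386166 and 1364644 in chow and 1092668 and 858593 in DDC. The members' share on heavy polysomes overlapped between diets (0.362% and 0.319% in chow, 0.335% and 0.2745% in DDC). On monosomes the share was higher in DDC without overlap (0.321% and 0.391% in chow, 0.428% and 0.470% in DDC). The 3 most abundant members over all libraries were Slc25a39, Slc25a47 and Slc25a1, with means of 777, 491 and 337 FPKM, followed by Slc25a5 and Slc25a3 with 285 and 156.

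Other genes of mitochondrial transport gave a comparison. Of 22 tested channels and transporters outside the family, 1 rose and 2 fell in cytoplasm, 3 and 7 on monosomes, 2 and 6 on light and 2 and 5 on heavy polysomes. Mpc2, a subunit of the mitochondrial pyruvate carrier, fell in all 4 pools: 182 and 177 FPKM against 77.4 and 57.5 in cytoplasm (-1.41, SE 0.30, limma adjusted p = 0.00603) and 681 and 458 against 99.8 and 108 on monosomes (-2.41). Its partner Mpc1 fell on monosomes (-2.02), light (-1.84) and heavy polysomes (-1.18), and Vdac1, the outer membrane channel, on the same 3 (-0.98, -1.34 and -0.65). Micu2, a regulator of the calcium uniporter, rose in cytoplasm, light and heavy polysomes (1.78, 0.86 and 1.33). Of 27 protein import genes, 2 rose and 1 fell in cytoplasm, 3 and 8 on monosomes, and 0 and 9, and 0 and 7, on light and heavy polysomes. Of the 5 enzymes that work beside the shuttle and citrate carriers, the cytosolic malate dehydrogenase Mdh1 fell in all 4 pools (-1.32, -1.25, -2.14 and -1.59). Mdh2 rose on monosomes (1.29), and Got1, Got2 and Acly were not called.

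The second question was how carrier mRNAs were placed along the gradient, as heavy polysomes minus monosomes within a diet. In chow 8 members were higher on heavy polysomes and 8 lower, against a background of 23.7% and 21.1% of genes. In DDC 6 were higher and 9 lower (18.2% and 14.5%). Members called in both diets numbered 12 (31.6%, against 23.5% of all genes), of which 5 were higher (Slc25a3, Slc25a5, Slc25a11, Slc25a12 and Slc25a47) and 7 lower (Slc25a16, Slc25a23, Slc25a37, Slc25a42, Slc25a44, Slc25a46 and Slc25a51); over all genes 13.3% were higher and 9.89% lower in both. Of the 12, the calls in both diets held in every fit without 1 library for Slc25a5, Slc25a23, Slc25a37, Slc25a42 and Slc25a46. The diets share no library, and 26 of 38 members (68.4%) had the same sign in both, against 76.8% of all genes. The gene sum of Slc25a12 was mostly transcripts annotated as processed or subject to nonsense-mediated decay. Its 1 coding transcript made up 2.49% and 6.03% of the gene on chow heavy polysomes and went the other way in chow, at 0.534 and 0.522 FPKM on monosomes and 0.218 and 0.172 on heavy polysomes. Among the 7 carboxylate and glutamate carriers, 4 were higher in chow (Slc25a1, Slc25a10, Slc25a11 and Slc25a12) and none lower, while 3 of 5 cofactor carriers were lower and none higher. In DDC 2 carboxylate and glutamate carriers were higher (Slc25a11 and Slc25a12) and none lower, and 2 cofactor carriers were lower and none higher. The 4 chow calls of carboxylate and glutamate carriers were all lost with libraries scaled to equal summed FPKM.

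The split of higher and lower depended on the scaling between libraries. With libraries scaled to equal summed FPKM, the median of all genes moved to -0.37 in both diets, and the members split into 2 higher and 11 lower in chow and 1 and 14 in DDC. The median member was then -0.35 in chow and -0.66 in DDC, which is 0.02 and -0.29 relative to that shift. Under that scaling the DDC against chow comparisons, where the median of all genes became 0.18 to 0.29, gave 5 higher and 6 lower members in cytoplasm, 5 and 4 on monosomes, 5 and 4 on light polysomes and 3 and 3 on heavy polysomes. With quantile normalization the DDC placement split into 3 higher and 10 lower.

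Slc25a47 had the largest difference towards heavy polysomes in chow (2.50, SE 0.41, limma adjusted p = 0.000438) and Slc25a5 in DDC (1.76, SE 0.23, adjusted p = 0.00025, and 1.95 in chow). Slc25a5 was 154 and 162 FPKM on monosomes and 626 and 603 on heavy polysomes in chow, and 162 and 109 against 470 and 432 in DDC. Slc25a16 (-2.66, SE 0.30) and Slc25a23 (-2.55, SE 0.32) lay farthest towards monosomes in chow. Slc25a23, at 295 and 358 FPKM on chow monosomes and 62.8 and 47.3 on heavy polysomes, was placed alike in DDC (-2.59). Next came mitoferrin-1 (Slc25a37) in chow (-1.81, and -1.94 in DDC) and Slc25a44 in DDC (-1.97, and -1.16 in chow). The values of Slc25a37 were 4.51 and 6.88 FPKM on chow monosomes and 1.04 and 0.719 on heavy polysomes, and 7.86 and 5.28 against 1.11 and 0.775 in DDC. Slc25a39 was lower on heavy polysomes in DDC (-1.10, adjusted p = 0.0241) and had -0.73 in chow (adjusted p = 0.0969). The DDC call was lost without either DDC monosome library or DDC heavy polysome replicate 2 (-1.15 to -0.49).

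**Figure D4:**
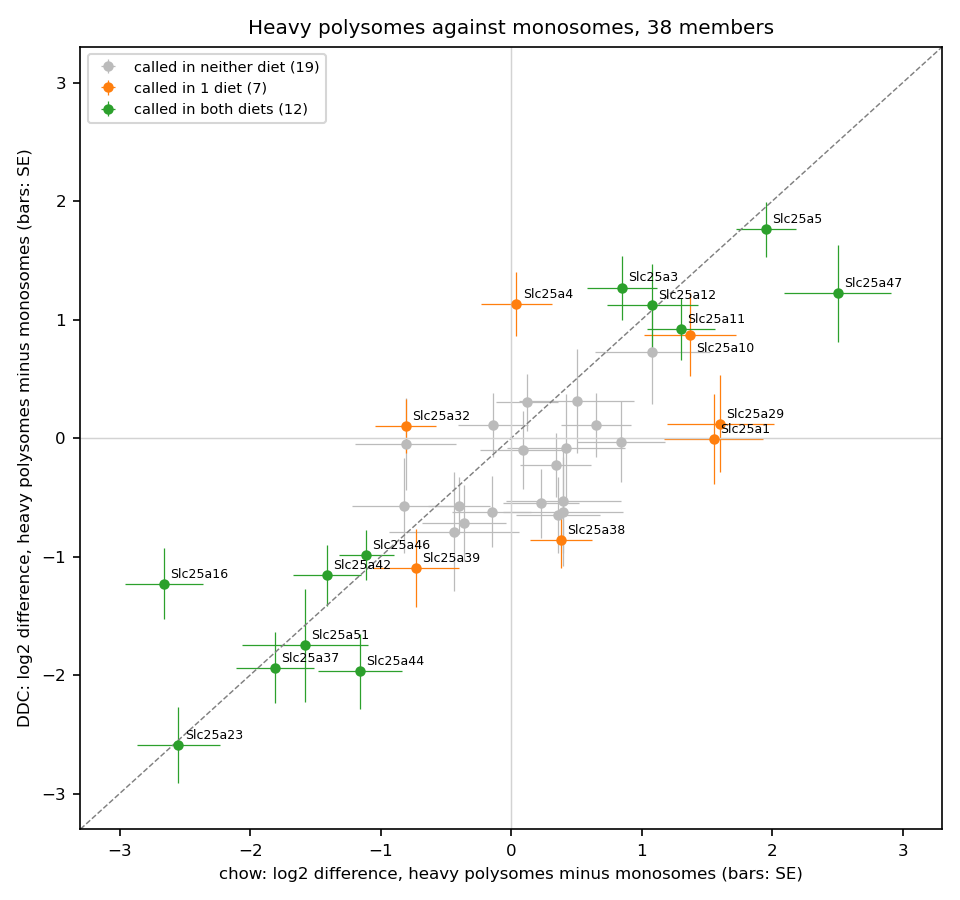
Log2 difference of heavy polysomes minus monosomes (log2(FPKM + 1) scale, bars are SE) in chow (x) and DDC (y) for 38 members; the dashed line marks equal values. Green points are the 12 members called in both diets, and Slc25a47, Slc25a1, Slc25a29 and Slc25a16 lie farther from the line than most.

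Neither test of a diet difference in placement called a member: 0 of 38 for heavy polysomes against monosomes (background 0.996% of genes higher and 0.902% lower) and 0 of 38 for heavy polysomes against cytoplasm (0.0596% and 0.0426%). The medians were -0.35 and -0.12 for members and -0.03 and -0.02 for all genes. The largest differences were those of Slc25a1 (1.55 in chow and -0.01 in DDC, difference -1.57, SE 0.54, limma adjusted p = 0.129), Slc25a29 (-1.48, SE 0.58), Slc25a16 (1.43, SE 0.42, adjusted p = 0.0895) and, against cytoplasm, Slc25a24 (-2.01, SE 0.42, adjusted p = 0.148). In chow, Slc25a24 was 0 in both heavy polysome libraries and 0.109 and 0.239 FPKM in cytoplasm, so its chow placement cannot be read. Slc25a16 was low on heavy polysomes in both diets (0.348 to 1.57 FPKM). At an unadjusted p under 0.05, 8 members passed for heavy polysomes against monosomes, where 20.2% of all genes did. For heavy polysomes against cytoplasm 5 passed, where 11.8% of all genes did. With the preparation kept as a replicate block within each diet, 3 members passed for heavy polysomes against monosomes (Slc25a16 higher, Slc25a29 and Slc25a38 lower), or 7.89% of the members against 7.6% of all genes in that fit. In the same fit 1 passed for heavy polysomes against cytoplasm, Slc25a24, against 0.673% of all genes, with the same limit of its chow values.

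**Figure D5:**
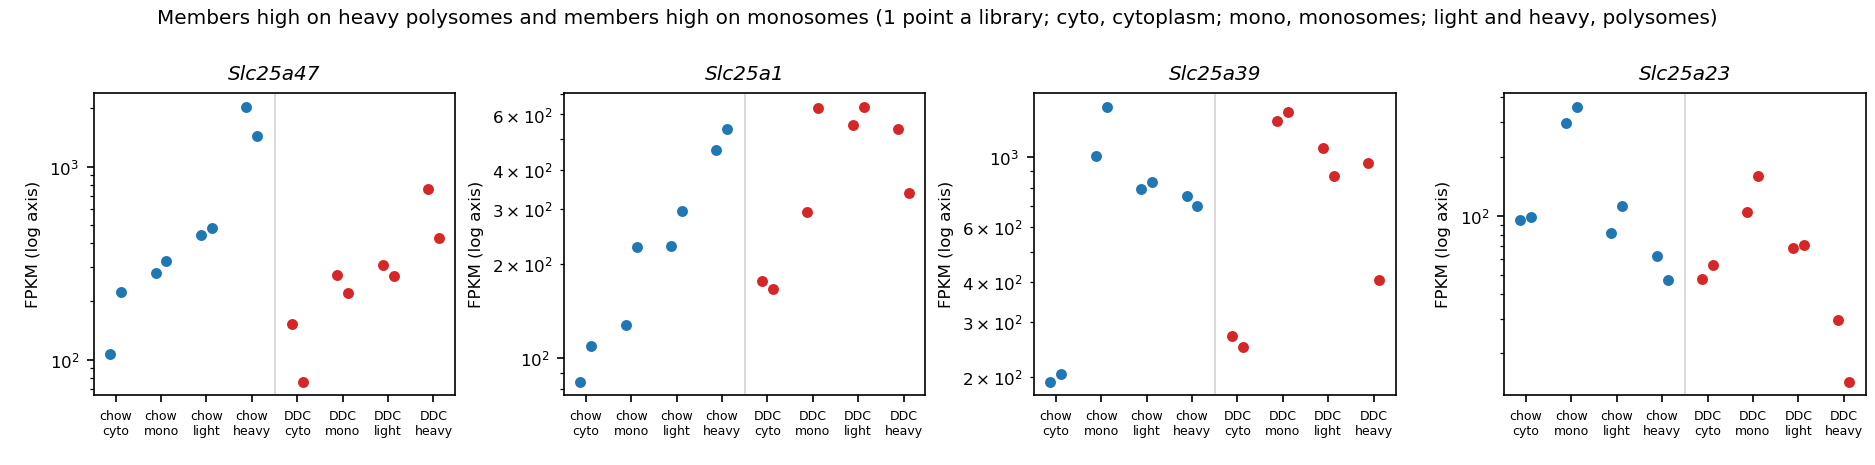
FPKM (log axis) of 4 members in each of the 16 libraries by pool, chow in blue and DDC in red. Slc25a47 climbs to 2042 and 1446 FPKM on chow heavy polysomes, Slc25a1 is highest there in chow alone, and Slc25a39 and Slc25a23 are highest on monosomes in both diets.

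The members' main coding transcripts share a short coding region (690 to 2034 bases, median 949.5) and differ more in the 3′ untranslated region (263 to 4739 bases, median 1205). Across the 38 members, Spearman's rho between the length of that region and the difference of heavy polysomes minus monosomes was -0.61 in chow and -0.45 in DDC (Pearson's r -0.51 and -0.33). For whole transcript length rho was -0.63 and -0.42, and for coding length -0.38 and -0.39. FPKM is divided by transcript length in both pools alike. That divisor thus enters a gene's difference mainly through the added 1 and the mix of transcripts summed. These are descriptions across genes measured in the same libraries. Slc25a5 (263 bases) and Slc25a47 (596) had short 3′ untranslated regions, and Slc25a16 (2027), Slc25a37 (2986) and Slc25a46 (3023) long ones. These examples go with the negative correlation, and other members went against it. Slc25a39 had a short region (435) but lay towards monosomes, at -0.73 in chow and -1.10 in DDC. Slc25a12 had a long one (4092), yet its gene sum was higher on heavy polysomes in both diets. The transcript with that region held 9.16% of the FPKM of Slc25a12.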

How the data were processed

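Polyadenylated RNA of 16 libraries was used, 2 for each of 8 groups of diet and pool. The submitters' processing notes list these tools: Cuffnorm, Picard 1.119, STAR 2.4.2a, Trimmomatic and bcl2fastq 2.17.1.14, with the build GRCm38/mm10; options are not given in the sources used here. The authors deposited 1 FPKM value per transcript and library, already scaled between libraries with Cuffnorm, so depth is not known and only approximate fragment numbers can be read from the value steps. GENCODE M21 gave the gene of 116728 of 117567 transcripts (99.29%; the unmatched held at most 0.509% of a library's FPKM), and another 25 rows for CDS entries were all 0. FPKM were summed per gene, and the 11790 genes with at least 1 FPKM in 2 libraries were tested.

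Differences were tested with limma 3.58.1 in R 4.3.3 on log2(FPKM + 1), as 8 group means over all 16 libraries with a mean-variance trend, and p-values were adjusted by Benjamini-Hochberg over all genes. Because of the pseudocount of 1, fold changes of low genes are understated. A gene at 0 in both libraries of a group but at 100 FPKM or more elsewhere was taken as missing in that group. The fit was also run on simulated data with independent noise in each library. These libraries share preparations, so that run cannot show how sharing affects the calls.

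Replicate differences correlated across genes by 0.357 to 0.536 between chow fractions, 0.514 to 0.749 between chow cytoplasm and fractions and 0.304 to 0.365 between DDC fractions, which share named preparations, by -0.0499 to 0.161 between DDC cytoplasm and fractions, and by -0.0938 to 0.0702 between diets. Numbers were thus used as a block within chow and among DDC fractions in an alternative fit only. Other alternatives were a pseudocount of 0.1, no filter, equal summed FPKM, quantile normalization, a fit of the compared groups alone, 0 kept as a value, protein-coding transcripts alone, and leaving out each library or chow preparation 1.

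Values in every library are given for the 5 most abundant members, for called members with a group mean of 5 FPKM or more (up to 5 in each direction per diet comparison, without overlap between groups, and up to 3 per other comparison), and for Slc25a1, Slc25a3, Slc25a4, Slc25a5, Slc25a10, Slc25a11, Slc25a13, Slc25a22, Slc25a25, Slc25a47 and Ucp2. The members, lists and named genes were chosen with earlier results of these data known. Markers of red blood cells (0 of 5 called between diets), endothelial cells (at most 2 of 6 higher) and neutrophils (at most 2 of 3 higher) were also read.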

Additional observations from a re-analysis of the deposited data

Results flagged for a closer look

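Both members listed here moved one way in every library of one pool and the other way in every library of another, and the difference between the pools paired here was not tested. Both stood at low levels. Slc25a32, a carrier of folate and flavin cofactors, had DDC minus chow differences of -0.31 on light polysomes and 0.41 on heavy polysomes, a gap of 0.72. On light polysomes it was 1.49 and 1.07 FPKM in chow and 0.75 and 0.925 in DDC. On heavy polysomes it was 0.214 and 0.23 against 0.56 and 0.682. Slc25a35, whose substrate is not established, had -0.06 in cytoplasm and 0.65 on monosomes, a gap of 0.71. In cytoplasm Slc25a35 was 0.343 and 0.344 FPKM in chow and 0.297 and 0.2815 in DDC. On monosomes it was 0.191 and 0 against 1.03 and 0.446. Slc25a32 also had -0.50 on monosomes and -0.36 in cytoplasm against its 0.41 on heavy polysomes, and these diet differences were tested with limma: 0.91 (SE 0.33, adjusted p = 0.148) and 0.77 (SE 0.33, adjusted p = 0.409), neither called. None of the differences within a pool was called singly, and groups of 2 libraries are too small to look for a library that stands apart.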

How the results depend on the processing

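The calls of Slc25a4, Slc25a24, Ucp2, Slc25a13 and Slc25a16 in cytoplasm and on light polysomes held under every alternative run. Leaving out 1 library at a time, the number of members called was 6 to 12 in cytoplasm (9 with all libraries), 7 to 12 on monosomes (11), 7 to 12 on light polysomes (10), 4 to 15 on heavy polysomes (13), 12 to 17 for placement in chow (16), 8 to 15 for placement in DDC (15), and 0 to 1 for each diet difference in placement. With 1 library left, a group is assumed to vary like the others. When the groups compared were fitted alone, 15 members were called in cytoplasm, 4 on monosomes, 2 on heavy polysomes, 9 for placement in chow and 0 for placement in DDC. Without chow preparation 1 the numbers were 7 on monosomes, 6 on light polysomes, 7 on heavy polysomes and 9 for placement in chow. Libraries scaled to equal summed FPKM gave 6 on heavy polysomes and 1 for the diet difference of heavy polysomes against cytoplasm. The replicate block gave 3 and 1 for the diet differences of heavy polysomes against monosomes and against cytoplasm, moved no other count by over 1.5 times, and ended no single call described for the named members. Under quantile normalization Slc25a3 went from 0.85 to -0.18 for placement in chow. The cause was not tested for these changes, beyond the smaller number of libraries where some were left out. Low levels limit the chow values of Slc25a4 and Slc25a24, all heavy polysome values of Slc25a16 and Slc25a32, and all values of Slc25a35.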
